A study of Mus musculus with 6 samples.

Results

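Complement and coagulation genes were examined in 6 tumors that formed in Balb/C mice from 4T1, an established line of mouse mammary carcinoma. The set of 39 genes was chosen by name: 16 complement components, 8 complement regulators, 4 complement receptors, 6 coagulation factors with the thrombin receptor, and 5 anticoagulant genes. Of these, 38 had a probe set that named 1 gene only, each with 1 such probe set, out of 19937 genes on the array. The component gene C3 was not analysed here. Each mouse received 750000 cells of the line in mammary gland number 4. From day 7 the daily oral dose was water in 3 mice and 40 mg/kg of TKI258 in the other 3, over 14 days. TKI258 (dovitinib) is an oral inhibitor of receptor tyrosine kinases, among them the FGF, VEGF and PDGF receptors and CSF1R. All animals thus carried the same cell line and differed by the agent given; the labels used here give neither the age nor the sex of the mice. RNA came from whole snap-frozen tumors, 1 array per tumor, and the values are log2 signals of probe sets.

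Complement is a cascade of plasma proteins that marks cells and debris. The classical pathway uses C1q, the lectin pathway the MASP proteases and the alternative pathway factor B. The pathways meet at convertases that cleave C3, and end in the membrane attack complex, a pore of C5b to C9 proteins. Blood coagulation starts when tissue factor meets factor VII, runs through factor X to thrombin, and is held back by tissue factor pathway inhibitors and by the thrombomodulin and protein C system. The liver makes most circulating components of both cascades. Macrophages make C1q, properdin and factor XIII A chain, and stromal cells make C1r, C4 and the C1 inhibitor.

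Array medians lay between 6.38 and 6.44, and correlations between arrays were 0.973 to 0.993. The tumors did not hold the same mixture of cells. The mean of 9 measured B cell markers was 6.89 in water replicate 1 and 8.90 in TKI258 replicate 3, against 4.98 to 5.23 in the other 4 tumors. The mean of 9 measured T and NK cell markers was also highest in those 2 tumors, at 6.14 and 7.24, against 5.23 to 5.56. The mean of 10 keratinocyte markers was 7.64 and 7.37 in water replicates 2 and 3, against 5.31 to 5.56 in the other 4. Adipocyte markers had means of 6.27 to 7.12 in water and 7.14 to 8.49 in TKI258 tumors. The epithelial keratin genes Krt8 and Krt18 had signals of 11.74 to 11.88 and 11.58 to 11.70 in water tumors, and 11.55 to 11.77 and 11.13 to 11.44 in TKI258 tumors. They were the 2 of 10 epithelial markers with a lower mean; the other 8 had a higher mean, 3 of them without overlap (Krt7 by 0.88, Cldn3 by 0.65 and Cldn4 by 0.91). In a whole tumor, fewer cells of a type and less RNA per cell cannot be told apart.

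No member passed limma's test. The smallest adjusted p of a member was 0.569, for C4b, and 0 of 34760 probe sets (0%) passed over the whole array, while 2803 had an unadjusted limma p under 0.05. Of the 38 members, 22 had a higher and 16 a lower mean in TKI258 tumors, where 56.6% of all genes had a higher and 43.4% a lower mean. The median log2 difference, TKI258 minus water, was 0.09 over the members and 0.02 over all genes. In 4 members every TKI258 tumor lay above every water tumor, which held for 8.66% of all genes, and in 2 every TKI258 tumor lay below, which held for 6.49%. The 4 were C4b, C6, C7 and Thbd, and the 2 were F2r and F3. An unadjusted limma p under 0.05 was found for 3 higher members (C4b, C6 and Thbd; 3.79% of all genes) and 1 lower member (Itgax; 3.35% of all genes). The counts without overlap are near the shares of the whole array, so they are not a result about this set. By class, regulators had a median difference of 0.34 (7 of 8 higher), components 0.12 (11 of 15 higher), anticoagulants -0.07 (2 of 5 higher), receptors -0.14 (0 of 4 higher) and coagulation factors with the thrombin receptor -0.22 (2 of 6 higher). The classes were not tested against each other. Single tumors moved these medians: without TKI258 replicate 3 they were 0.087 for regulators, 0.036 for components, -0.056 for receptors and -0.034 for coagulation genes, and without water replicate 2 the coagulation median was -0.010.

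**Figure D1:**
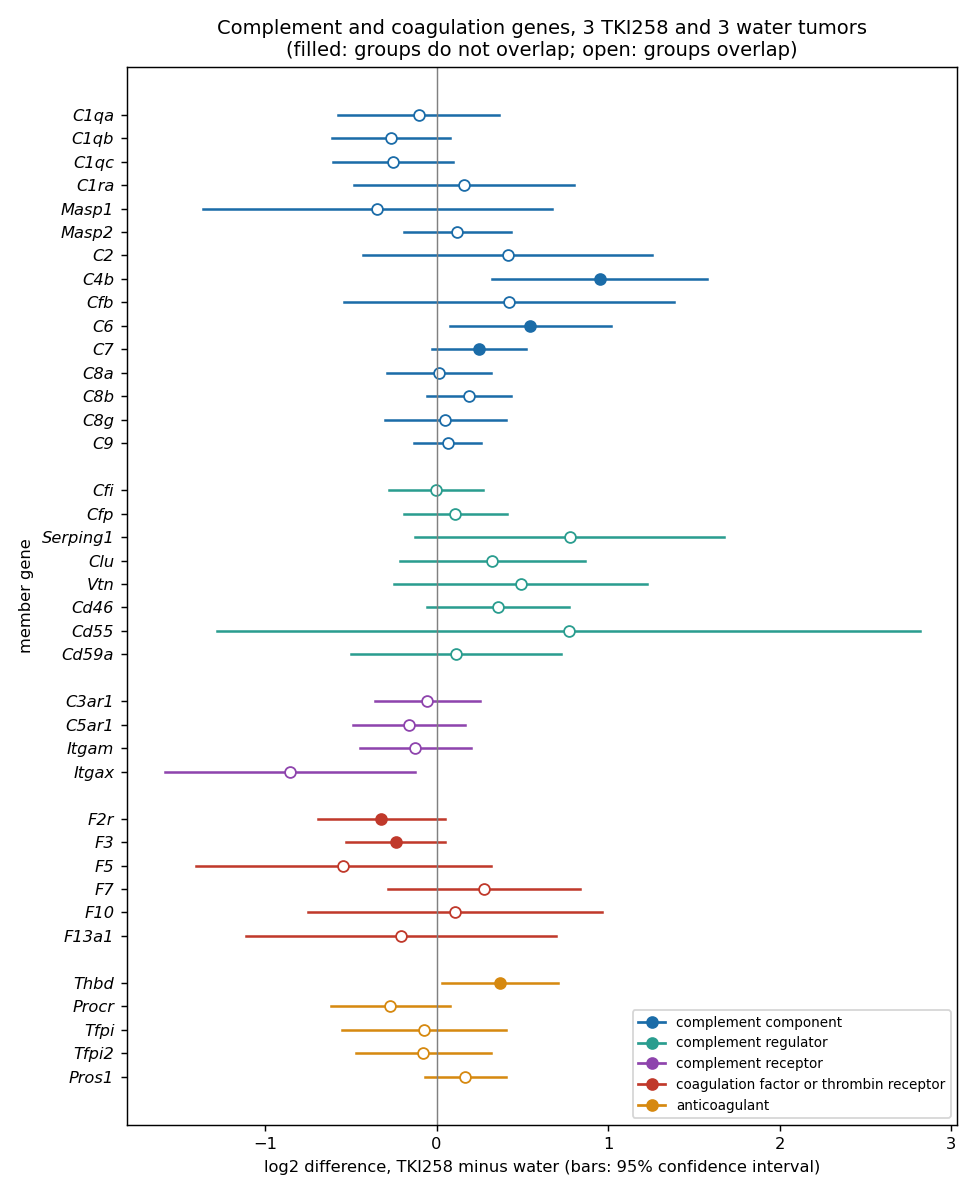
Log2 difference between 3 TKI258 and 3 water tumors for the 38 measured members (x axis) by gene and class (y axis); dots are differences from the limma fit, bars are their 95% confidence intervals, and filled dots mark the 6 genes whose groups do not overlap. C4b has the largest positive difference (0.95) and Itgax the largest negative one (-0.85), and most intervals include 0.

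The C1q chains are 3 related proteins that join into the C1q molecule, which binds antibody on its targets. All 3 had lower means in TKI258 tumors, with overlap. C1qa signals were 10.53, 11.23 and 10.97 in water replicates 1 to 3 and 10.61, 11.02 and 10.80 in TKI258 replicates 1 to 3. C1qb signals were 10.72, 11.19 and 10.85 in water and 10.53, 10.64 and 10.80 in TKI258 tumors. C1qc signals were 10.38, 10.91 and 10.69 in water and 10.30, 10.46 and 10.46 in TKI258 tumors. Each chain was highest in water replicate 2, the highest tumor for 12 of the 38 members and for 18.2% of all genes, and water replicate 1 lay within the range of the TKI258 tumors for C1qb and C1qc and below it for C1qa. The log2 differences were -0.10 ± 0.20 (SE) for C1qa, -0.26 ± 0.14 for C1qb and -0.25 ± 0.15 for C1qc, with limma adjusted p of 0.887, 0.672 and 0.677. The macrophage markers had the same order in water: their mean over 13 genes was 9.30, 9.85 and 9.34 in water and 9.18, 9.28 and 9.29 in TKI258 tumors, with 12 of 13 lower. Their part in the C1q values was not tested. Without water replicate 2 the C1qa difference turned to 0.06 and those of C1qb and C1qc were -0.13 each.

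The 3 chain genes are direct neighbours on chromosome 4, with no other protein-coding gene between them. Of the chains, only C1qb and C1qc had a promoter entry. The 250 bases before the start sites of C1qb (chr4:136886201-136886450, minus strand) and C1qc (chr4:136892915-136893164, minus strand) are shown. They are from RefSeq on GRCm38.p6, 5′ to 3′ on the strand of the gene, with capitals for matches on either strand to 6 motifs: GAGGAA (the core bound by PU.1, a myeloid factor), GAAANNGAA (interferon response), TTCNNNGAA (STAT), TGANTCA (AP-1), GGGNNTTTC (NF-kB) and GGGCGG (GC box).
C1qb: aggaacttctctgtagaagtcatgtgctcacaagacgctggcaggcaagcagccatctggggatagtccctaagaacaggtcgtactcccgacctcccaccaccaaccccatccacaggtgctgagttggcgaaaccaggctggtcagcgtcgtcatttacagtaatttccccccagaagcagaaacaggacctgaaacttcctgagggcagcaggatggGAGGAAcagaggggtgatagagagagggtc
C1qc: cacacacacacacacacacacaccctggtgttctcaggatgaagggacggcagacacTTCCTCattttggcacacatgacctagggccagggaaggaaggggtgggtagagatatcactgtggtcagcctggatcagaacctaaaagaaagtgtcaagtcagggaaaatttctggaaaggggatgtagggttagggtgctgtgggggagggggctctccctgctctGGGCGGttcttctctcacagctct
Both windows held 1 match to GAGGAA, 30 bases before the C1qb start and 193 bases before the C1qc start, and C1qc also held 1 GC box. Of 32851 promoter windows of the same length, 23.3% held GAGGAA, 32.7% the GC box, 7.13% the interferon response motif, 7.02% the STAT motif, 6.75% the AP-1 motif and 3.72% the NF-kB motif. No matches overlapped in the windows shown. Promoter entries were found for 29 of the 38 members.

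The proteases that act with the recognition proteins had small differences. C1ra, the C1r protease, had signals of 6.62 ± 0.54 (SD, n = 3) in water and 6.78 ± 0.21 in TKI258 tumors. Masp1, a protease of the lectin pathway, was 9.06 ± 0.82 in water and 8.71 ± 0.46 in TKI258 tumors, and its water range of 8.37 to 9.97 enclosed all but the lowest TKI258 tumor, at 8.22. Masp2, the protease that cleaves C4 and C2, was 6.14 ± 0.15 and 6.26 ± 0.19. Their log2 differences were 0.16 ± 0.27, -0.35 ± 0.43 and 0.12 ± 0.13 (SE). Masp1 changed direction without water replicate 2 (0.11), its highest tumor, and C1ra without water replicate 1 (-0.09), its lowest.

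The convertase genes C4b, C2 and Cfb had higher means in TKI258 tumors, and C4b had the largest difference of any member. C4b encodes C4, whose fragment forms the platform of the classical and lectin convertase. Its signals were 8.19, 7.74 and 8.15 in water and 8.68, 8.68 and 9.56 in TKI258 tumors. All TKI258 tumors were above all water tumors, with TKI258 replicate 3 well above the other two. The difference was 0.95 ± 0.26 (SE), a 1.93-fold higher level (95% confidence interval 0.32 to 1.58 on the log2 scale; limma adjusted p = 0.569). It was 0.66 without TKI258 replicate 3 and 0.81 to 1.10 without any other single tumor. Adipocyte, fibroblast and epithelial marker means were also higher in TKI258 tumors, by 1.11 (9 of 10 genes higher), 0.24 (8 of 10) and 0.33 (8 of 10). Fibroblast means were 9.36 to 9.66 in water and 9.56 to 9.87 in TKI258 tumors, and epithelial means 7.85 to 8.45 and 8.35 to 8.63. The part of these cell types in the C4b value was not tested.

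C4a, the near-identical neighbouring copy of C4b, was one of 25 measured complement genes outside the set. Its signals were 6.63, 6.12 and 6.61 in water and 6.73, 6.88 and 7.16 in TKI258 tumors, again without overlap. Its difference was 0.47 ± 0.18 (SE; limma adjusted p = 0.604). RNA of 2 such similar genes can bind to the same probes, so C4a and C4b are not separate evidence.

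C2, the protease of the classical and lectin convertase, and Cfb, its counterpart in the alternative pathway, are direct neighbours on chromosome 17, and C4b lies 5 protein-coding genes away from Cfb. C2 signals were 5.87, 5.37 and 5.91 in water and 5.60, 5.85 and 6.94 in TKI258 tumors. Cfb signals were 8.66, 8.28 and 8.99 in water and 8.82, 8.40 and 9.97 in TKI258 tumors. For both genes only TKI258 replicate 3 lay above the water range. The differences were 0.42 ± 0.35 and 0.42 ± 0.40 (SE), and without TKI258 replicate 3 they were 0.01 and -0.03. Without that tumor C4b thus kept a difference of 0.66, while those of C2 and Cfb were near 0.

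The 6 member genes of the membrane attack complex were low, and all 6 had a higher mean in TKI258 tumors. Their averages over the 6 arrays lay below the median of all probe sets, 6.40, so none of the 6 passed a filter on low signal. C6, which joins C5b to begin the pore, had signals of 5.90, 5.97 and 5.90 in water and 6.22, 6.25 and 6.94 in TKI258 tumors. C7, the next protein of the pore, had signals of 4.08, 3.84 and 4.17 in water and 4.21, 4.23 and 4.39 in TKI258 tumors. Neither gene overlapped between groups, with C6 highest in TKI258 replicate 3 and C7 separated by a small gap between 4.17 and 4.21. The difference was 0.55 ± 0.20 (SE) for C6 (1.46-fold, limma adjusted p = 0.599) and 0.25 ± 0.11 for C7 (adjusted p = 0.648). Without TKI258 replicate 3 they were 0.31 and 0.19, and without water replicate 2 that of C7 was 0.15. The other member genes of the pore, C8a, C8b, C8g and C9, differed by 0.01, 0.19, 0.05 and 0.06, each with overlap. Hc, the C5 gene and no member of the set, was 5.70 ± 0.23 (SD, n = 3) in water and 5.65 ± 0.30 in TKI258 tumors. Its difference was -0.05, with overlap.

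C6 and C7 lie on chromosome 15 with 1 protein-coding gene between them, and C9 is 6 genes beyond C7. The windows before C6 (chr15:4726960-4727209, plus strand) and C7 (chr15:5063774-5064023, minus strand) are shown because both genes were higher without overlap, with the same build, direction and capitals as for C1q.
C6: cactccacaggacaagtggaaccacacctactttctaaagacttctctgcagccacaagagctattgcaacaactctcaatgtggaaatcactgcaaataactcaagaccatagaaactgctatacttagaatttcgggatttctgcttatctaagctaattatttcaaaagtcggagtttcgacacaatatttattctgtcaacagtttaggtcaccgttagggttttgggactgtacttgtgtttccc
C7: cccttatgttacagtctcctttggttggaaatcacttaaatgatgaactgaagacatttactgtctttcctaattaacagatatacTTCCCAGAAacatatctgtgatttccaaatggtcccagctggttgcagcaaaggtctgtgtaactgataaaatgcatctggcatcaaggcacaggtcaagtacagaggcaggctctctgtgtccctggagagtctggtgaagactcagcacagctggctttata
The C6 window held no match to any of the 6 motifs. C7 held 1 match to TTCNNNGAA, 164 bases before the start, the STAT motif.

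**Figure D2:**
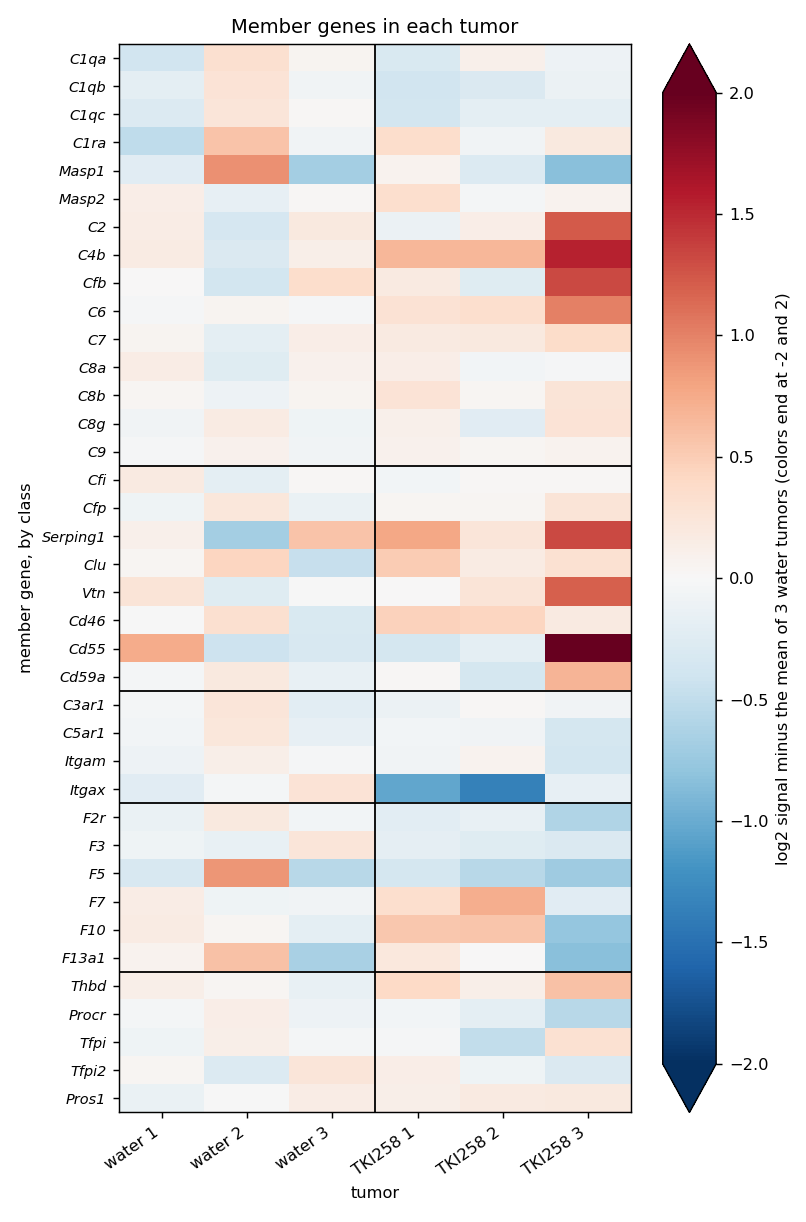
Log2 signal of each of the 38 members (rows, by class) in each tumor (columns), minus the mean of the 3 water tumors for that gene; red is higher and blue lower, and colors end at -2 and 2. TKI258 replicate 3 was the highest of the 6 tumors for 14 members, among them C4b, C2, Cfb, C6, Serping1, Vtn and Cd55, and the lowest for all 6 coagulation factors with the thrombin receptor.

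Soluble regulators were mostly higher in TKI258 tumors, with overlap in each gene. Serping1, the C1 inhibitor, which blocks C1r, C1s and the MASPs, had signals of 9.52, 8.74 and 9.99 in water and 10.19, 9.66 and 10.74 in TKI258 tumors. TKI258 replicates 1 and 3 lay above all water tumors, and TKI258 replicate 2 lay between water replicates 1 and 3. The difference was 0.78 ± 0.38 (SE), a 1.71-fold higher mean (limma adjusted p = 0.655), and it was 0.44 without water replicate 2 and 1.06 without water replicate 3. Clu, which encodes clusterin, an inhibitor of the pore and an extracellular chaperone, had signals of 11.08, 11.46 and 10.58 in water and 11.55, 11.21 and 11.34 in TKI258 tumors. The clusterin difference was 0.33 ± 0.23 (SE) and 0.09 without water replicate 3, its lowest tumor.

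Vtn, vitronectin, which keeps the pore from inserting, was 5.57 ± 0.25 (SD, n = 3) in water and 6.06 ± 0.63 in TKI258 tumors. Its highest signal was 6.77, in TKI258 replicate 3, and its difference of 0.49 became 0.14 without that tumor. Properdin (Cfp), which stabilises the alternative convertase, was 9.92 ± 0.19 and 10.03 ± 0.12. Factor I (Cfi), which cleaves C3b and C4b, stood at 4.07 ± 0.19 and 4.07 ± 0.04. The intervals of the last 2 differences were -0.19 to 0.41 and -0.28 to 0.27.

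Membrane regulators guard host cells. Cd55, the decay-accelerating factor that takes convertases apart, had signals of 5.73, 4.57 and 4.67 in water and 4.65, 4.80 and 7.84 in TKI258 tumors. Its 2 high tumors, water replicate 1 and TKI258 replicate 3, were the 2 with high B cell markers, and the other 4 lay between 4.57 and 4.80. T and NK cell markers were also highest in those 2 tumors. The difference of 0.77 ± 0.86 (SE) turned to -0.27 without TKI258 replicate 3 and was 0.10 without both of those tumors. Cr2, the complement receptor of B cells and follicular dendritic cells and no member of the set, had the same shape, with 7.28 and 9.09 in those 2 tumors and 4.10 to 4.35 in the others. The part of B cells or of T and NK cells in the Cd55 value was not tested beyond leaving these tumors out.

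Cd46, a cofactor for factor I that mice express mainly in sperm, had signals of 6.56 ± 0.31 (SD, n = 3) in water and 6.92 ± 0.15 in TKI258 tumors. Its difference was 0.36 ± 0.17 (SE), from 0.20 without water replicate 3 to 0.52 without water replicate 2. Cd59a, which stops C9 from entering the pore, was 4.62 ± 0.17 and 4.74 ± 0.52 (SD). Its direction also turned without TKI258 replicate 3 (-0.17).

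Receptor genes all had lower means in TKI258 tumors, and Itgax had the largest negative difference of the members. Itgax is the alpha chain of complement receptor 4 (CD11c), an integrin of dendritic cells and some macrophages. Its signals were 7.76, 7.95 and 8.26 in water and 6.95, 6.64 and 7.82 in TKI258 tumors. TKI258 replicates 1 and 2 lay below all water tumors, and TKI258 replicate 3 lay between water replicates 1 and 2. The difference was -0.85 ± 0.31 (SE), a 1.81-fold lower mean (interval -1.58 to -0.12; limma adjusted p = 0.599). Without TKI258 replicate 3 it was -1.20 with no overlap (adjusted p = 0.490), and without TKI258 replicate 2 it was -0.60.

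Dendritic cell markers had a mean over 10 genes of 6.58, 6.35 and 6.33 in water and 6.26, 6.18 and 6.86 in TKI258 tumors, with 9 of 10 highest in TKI258 replicate 3. Of the defining genes, Zbtb46 was higher in TKI258 tumors without overlap (6.37 to 6.44 in water, 6.57 to 6.66 in TKI258 tumors), the direction opposite to Itgax. Flt3 was at 5.77 to 6.17 in water and 5.49 to 6.18 in TKI258 tumors, and Xcr1 at 5.39 to 5.80 and 5.41 to 5.86. Clec9a, at low signal, was 4.04, 4.08 and 4.09 in water and 3.48, 3.51 and 4.19 in TKI258 tumors. In the list 6 genes had a higher and 4 a lower mean. The list mean was lowest in TKI258 replicates 1 and 2, as Itgax was, but highest in TKI258 replicate 3, where Itgax was not. The macrophage marker mean over 13 genes was 9.30 to 9.85 in water and 9.18 to 9.29 in TKI258 tumors, with 12 of 13 lower. The part of dendritic cells or of macrophages in the Itgax value was not tested.

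The other receptors overlapped. Itgam, the alpha chain of complement receptor 3 (CD11b) on neutrophils and macrophages and the direct neighbour of Itgax on chromosome 7, had signals of 9.90, 10.13 and 9.98 in water and 9.93, 10.08 and 9.63 in TKI258 tumors. C3ar1, the receptor of the fragment C3a, had signals of 10.08, 10.36 and 9.92 in water and 10.01, 10.14 and 10.05 in TKI258 tumors. C5ar1, the C5a receptor of neutrophils and macrophages, had signals of 8.52, 8.80 and 8.42 in water and 8.52, 8.51 and 8.23 in TKI258 tumors. Intervals of the differences were -0.45 to 0.20 for Itgam, -0.36 to 0.25 for C3ar1 and -0.49 to 0.17 for C5ar1. Over the same tumors the neutrophil marker mean was 6.78 to 7.17 in water and 6.16 to 6.61 in TKI258 tumors, without overlap and with 10 of 12 genes lower. The differences of Itgam, C3ar1 and C5ar1 were smaller than the larger of the 2 group SDs. The neutrophil list mean was 0.60 lower, with a median difference of -0.48 and a range from -1.55 (Ngp) to 0.08 (Mpo). The part of neutrophils in the receptor values was not tested.

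**Figure D3:**
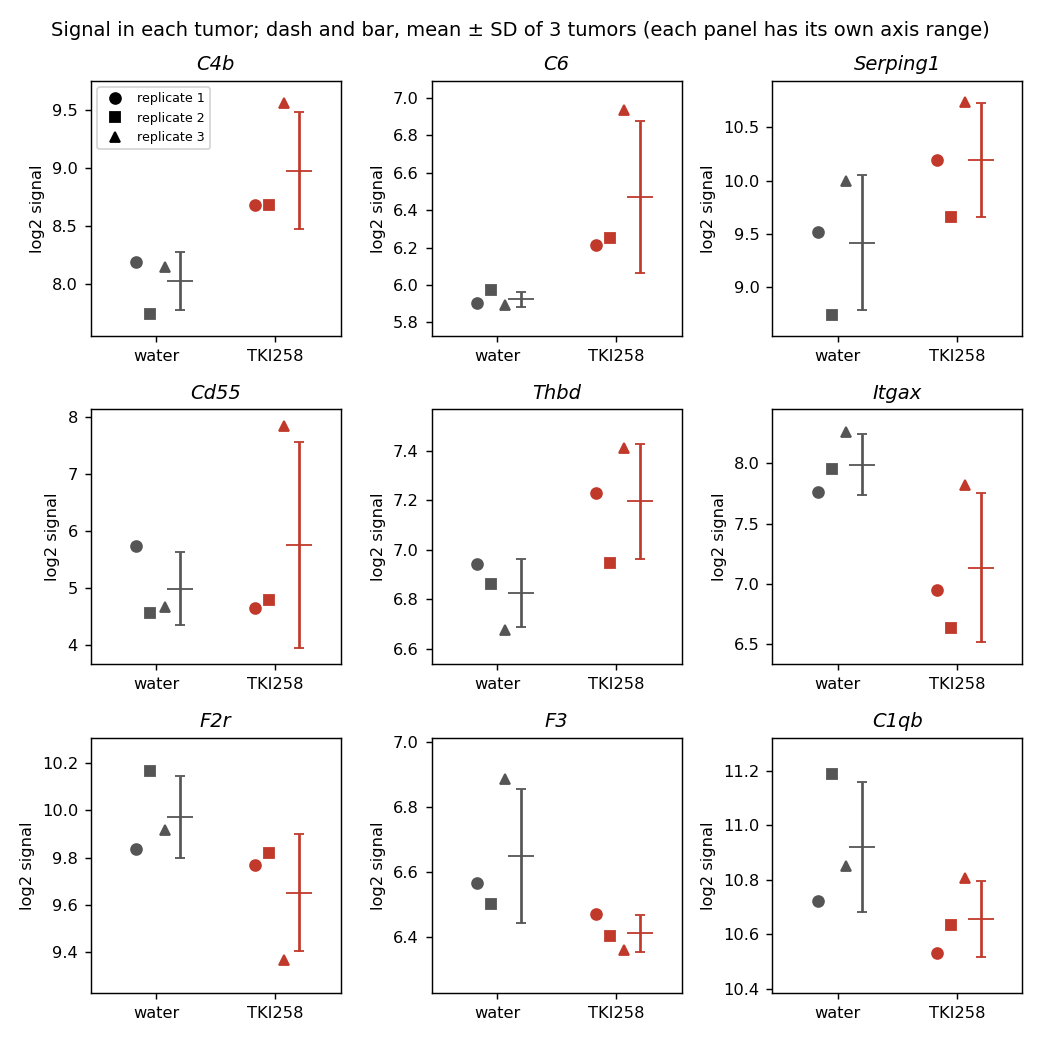
Log2 signal of 9 members (y axis, its own range in each panel) in the 3 water and 3 TKI258 tumors; symbols mark the replicate number, and the dash with its bar is the mean ± SD of 3 tumors. C4b, C6 and Thbd are higher and F2r and F3 lower in TKI258 tumors without overlap, Cd55 is highest in TKI258 replicate 3 at 7.84, and Itgax is low in TKI258 replicates 1 and 2.

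Of the coagulation genes, the initiator F3 and the thrombin receptor F2r were lower without overlap, by small amounts. F3 encodes tissue factor, the cell surface trigger of clotting. Its signals were 6.57, 6.50 and 6.89 in water and 6.47, 6.41 and 6.36 in TKI258 tumors. F2r encodes PAR1, the receptor that thrombin cleaves. Its signals were 9.83, 10.17 and 9.92 in water and 9.77, 9.82 and 9.37 in TKI258 tumors. The gap between groups was narrow in both genes: 6.50 against 6.47 for F3 and 9.83 against 9.82 for F2r. Differences were -0.24 ± 0.12 (SE; limma adjusted p = 0.660) for F3 and -0.32 ± 0.15 (adjusted p = 0.652) for F2r. F3 was -0.12 without water replicate 3 and F2r -0.18 without TKI258 replicate 3. After centring each array on its median the F2r groups overlapped.

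The windows before F3 (chr3:121723287-121723536, plus strand) and F2r (chr13:95618467-95618716, minus strand) are shown because these 2 members were lower without overlap, written as for C1q.
F3: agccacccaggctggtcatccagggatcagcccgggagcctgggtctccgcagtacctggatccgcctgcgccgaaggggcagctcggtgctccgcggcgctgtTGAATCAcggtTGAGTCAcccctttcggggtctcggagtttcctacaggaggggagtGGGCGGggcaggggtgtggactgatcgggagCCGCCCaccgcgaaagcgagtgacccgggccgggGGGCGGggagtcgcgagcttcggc
F2r: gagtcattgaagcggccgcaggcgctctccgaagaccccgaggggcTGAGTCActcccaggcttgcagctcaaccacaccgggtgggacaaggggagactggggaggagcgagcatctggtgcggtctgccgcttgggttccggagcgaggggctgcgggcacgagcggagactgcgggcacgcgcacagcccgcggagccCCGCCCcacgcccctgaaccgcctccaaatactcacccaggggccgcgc
The F3 window held 2 AP-1 matches, 146 and 135 bases before the start, and 3 GC boxes. The F2r window held 1 AP-1 match, 204 bases before the start, and 1 GC box. A match says that the letters are there, not that a factor binds.

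The remaining clotting factors varied mainly between tumors of the same group. F7 and F10, direct neighbours on chromosome 8 that encode the protease partner of tissue factor and its substrate, had one pattern. F7 signals were 6.56, 6.33 and 6.34 in water and 6.75, 7.13 and 6.18 in TKI258 tumors. F10 signals were 8.41, 8.28 and 8.04 in water and 8.79, 8.79 and 7.47 in TKI258 tumors. Both genes were above the water range in TKI258 replicates 1 and 2 and below it in TKI258 replicate 3. The differences of 0.28 ± 0.23 and 0.11 ± 0.36 (SE) became 0.53 and 0.55 without TKI258 replicate 3 (limma adjusted p = 0.601 for F7 and adjusted p = 0.573 for F10).

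F13a1, the chain that cross-links fibrin and a common macrophage transcript, had signals of 10.73, 11.25 and 10.02 in water and 10.88, 10.67 and 9.83 in TKI258 tumors. F5, the cofactor of factor X, was 6.44 ± 0.77 (SD, n = 3) in water and 5.89 ± 0.18 in TKI258 tumors, with its one high signal, 7.31, in water replicate 2; its difference of -0.54 was -0.11 without that tumor. F13a1 was lowest in water replicate 3 and TKI258 replicate 3, and its difference of -0.21 turned to 0.11 without TKI258 replicate 3. All 6 genes of this class were lowest in TKI258 replicate 3, which was the lowest tumor for 28.2% of all genes. The same tumor was the highest for 5 of 8 complement regulators and 6 of 15 components, and for 26.3% of all genes.

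Among anticoagulants, Thbd was higher without overlap. It encodes thrombomodulin, the endothelial receptor that turns thrombin towards protein C. Its signals were 6.94, 6.86 and 6.68 in water and 7.23, 6.95 and 7.41 in TKI258 tumors. TKI258 replicate 2, at 6.95, was barely above water replicate 1, at 6.94. The difference was 0.37 ± 0.14 (SE), a 1.29-fold higher level (limma adjusted p = 0.610), and 0.26 without TKI258 replicate 3. Procr, the endothelial protein C receptor and partner of thrombomodulin, had signals of 8.36, 8.54 and 8.31 in water and 8.35, 8.20 and 7.86 in TKI258 tumors, with a difference of -0.27 ± 0.15 (SE) that was -0.13 without TKI258 replicate 3. Thbd and Procr thus had means in opposite directions, and the endothelial marker mean over 10 genes was 7.79 ± 0.22 (SD) in water and 7.55 ± 0.23 in TKI258 tumors.

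The inhibitors of the tissue factor pathway had near-equal means. Tfpi was 7.58 ± 0.11 (SD, n = 3) in water and 7.51 ± 0.40 in TKI258 tumors. Tfpi2, a related inhibitor in the matrix, was 7.40 ± 0.25 and 7.33 ± 0.21. Pros1, protein S, a cofactor of protein C and a ligand of TAM receptors, was 8.35 ± 0.14 and 8.52 ± 0.04. Their intervals ran from -0.55 to 0.41, -0.47 to 0.32 and -0.07 to 0.40.

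Genes of both cascades outside the set were given by count. Over all genes, 56.6% had a higher mean, and 8.66% were higher and 6.49% lower without overlap. An unadjusted limma p under 0.05 was found for 3.79% higher and 3.35% lower. The lists here were not tested against these shares. Of 25 measured complement genes, 14 had a higher and 11 a lower mean, 3 were higher and 2 lower without overlap, and 0 passed limma's adjusted test (1 higher and 1 lower at an unadjusted p under 0.05). The smallest p were those of Cd93 (-0.88 ± 0.22, SE), an endothelial and myeloid surface protein once taken for a C1q receptor, C4a, Csmd1 (0.27 ± 0.12), a membrane inhibitor, and C1qbp (-0.24 ± 0.11), a mitochondrial protein that binds C1q. Of 26 measured coagulation genes, 20 had a higher and 6 a lower mean, 4 were higher and 0 lower without overlap, and 0 passed (3 higher and 0 lower at an unadjusted limma p under 0.05). The smallest p were those of Vwf (0.47 ± 0.12), von Willebrand factor, Proc (0.26 ± 0.09), protein C, Serpina5 (0.26 ± 0.09), the protein C inhibitor, and F12 (0.19 ± 0.09), the contact factor. The medians of the 2 lists were 0.02 and 0.07, against 0.02 for all genes. Of 9 measured hepatocyte markers, 7 had a higher mean in TKI258 tumors and 3 did so without overlap (Cyp2e1 by 3.39, Ahsg by 0.53 and Hpx by 0.33), and the list mean was 4.90 to 5.35 in water and 5.42 to 5.84 in TKI258 tumors. The list median difference was 0.11, so the list mean rested largely on Cyp2e1, at 7.47, 4.79 and 4.79 in water and 7.71, 9.17 and 10.35 in TKI258 tumors. The defining liver gene Alb stood at 3.78 to 3.83 in water and 3.80 to 4.00 in TKI258 tumors. Adipocyte marker means were 7.12, 6.27 and 6.69 in water and 7.14, 7.78 and 8.49 in TKI258 tumors, highest in TKI258 replicate 3 as Cyp2e1 was. Of 8 measured platelet markers, 7 had a higher mean and 4 did so without overlap (Itga2b, Gp5, Treml1 and Tubb1, by 0.14 to 0.39), with a list mean of 6.06 to 6.22 in water and 6.18 to 6.45 in TKI258 tumors. Pf4 was the one platelet marker with a lower mean, at 8.24 to 8.99 in water and 7.72 to 9.05 in TKI258 tumors. The part of hepatocytes or platelets in the coagulation values, and of adipocytes in the Cyp2e1 value, was not tested.

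**Figure D4:**
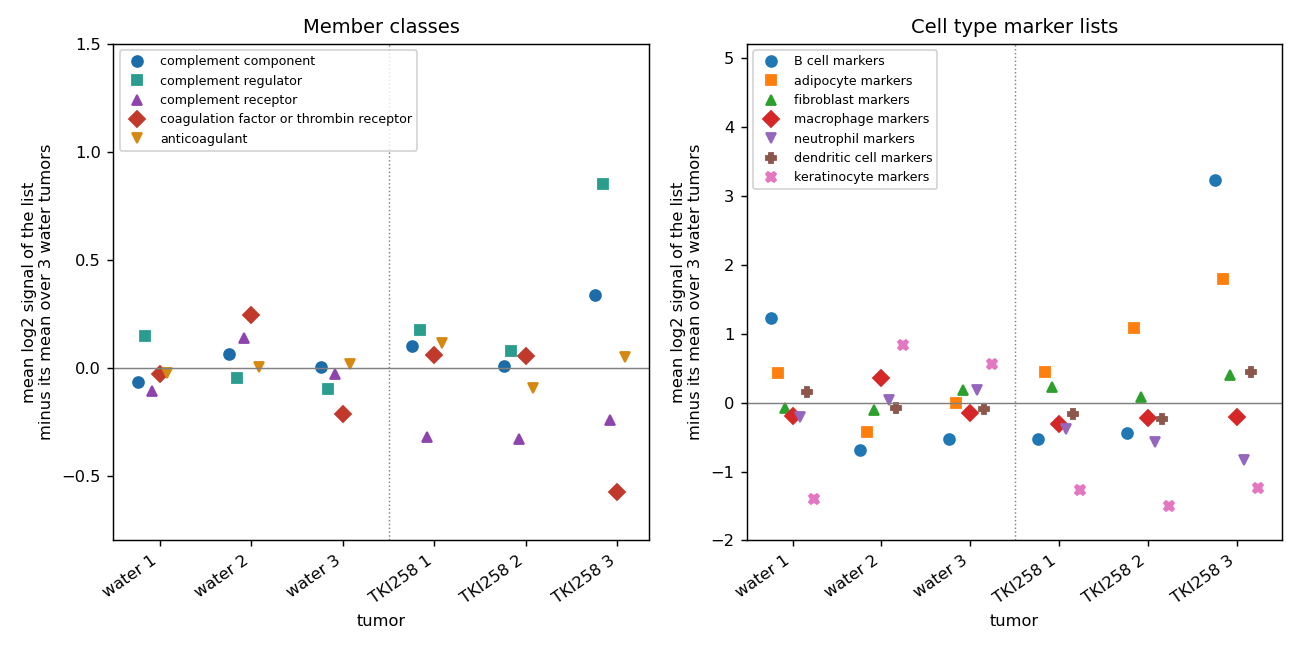
Mean log2 signal of each member class (left) and of 7 cell type marker lists (right) in each tumor, minus the mean of the same list over the 3 water tumors (y axes, different ranges; x axes, tumors). In TKI258 replicate 3 regulators are highest and coagulation factors lowest, and the same tumor has the highest B cell (8.90) and adipocyte (8.49) means.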

How the data were processed

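RNA from 6 tumors (3 water, 3 TKI258; groups from the sample titles) was hybridized to Affymetrix arrays. The authors deposited RMA-processed probe set signals on a log2 scale; the submitters' processing notes name RMA, affy and limma with no version. The genome build is not given in the sources used here. All 34760 probe sets entered 1 limma fit with group as the only term (lmFit, eBayes; R 4.3.3, limma 3.58.1), two-sided, with Benjamini-Hochberg adjustment over all probe sets and a threshold of 0.05. All p-values, SE and 95% confidence intervals come from this fit, checked on simulated data. The number of arrays limits the precision.

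Genes were named through the platform annotation, from the 21640 probe sets listing 1 gene; 1321 listed several and 11799 none. Where a gene had several, the one with the highest average signal was used. The 38 member symbols matched the mouse RefSeq gene table (GRCm38.p6) by Entrez number, and 0 changed. Members, roles, other pathway genes and marker lists were chosen with earlier results of these data known. All members are named. Of the other pathway genes the 4 per list with the smallest p are named, with Cr2 and Hc added outside this rule after their values were seen. Values per tumor are given for members whose groups do not overlap or with unadjusted p under 0.05, and for 12 others picked by name, with C2, F7 and F10 added after their values were seen. List counts and medians carry no test. The labels do not say whether replicate numbers pair tumors. Deviations of same-numbered tumors correlated at -0.23, 0.19 and 0.01, and those of differently numbered tumors at -0.28 to 0.31. With 3 tumors per group these values cannot decide it. Alternatives were filters on low signal or variance, median centring, quantile normalization, a replicate block, leaving out each tumor or both B cell-rich tumors, array weights, a trend and robust prior, and averaging the probe sets of each gene.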

Additional observations from a re-analysis of the deposited data

How the results depend on the processing

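No member passed limma's adjusted test under any of the 15 alternatives run (adjusted p 0.332 to 0.998). C4b, C6, C7, Thbd, Itgax, F2r and F3 kept their direction in all in which they were measured. Most alternatives could not have turned it. Leaving out tumors cannot turn a gene without overlap, and the filters and the replicate block leave each difference as it was. Another pseudocount does not apply to log2 values. Over all probe sets 0 passed; 2 passed with the low-variance filter, 1 without both tumors high in B cell markers, and 0 to 3 without single tumors. With the replicate block 0 probe sets passed, and 4 members were higher (C4b, C6, Serping1 and Cd46) and 1 lower (Itgax) at an unadjusted limma p under 0.05; Thbd no longer was, Serping1 and Cd46 newly were, and the block changed no adjusted call.

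With the low-signal filter, which left 25 members, the 4 higher and 2 lower members without overlap became 2 and 2. Of the genes it kept, 4.71% were higher and 10.2% lower. Median centring gave 4 higher and 1 lower (7.39% and 6.95% of all genes). Leaving out both B cell-rich tumors gave 8 higher and 5 lower, where fewer tumors make overlap less likely (24.8% of all genes higher and 16.1% lower). Without single tumors they were 5 to 9 higher and 2 to 5 lower, beside 12.1% to 16.6% of all genes higher and 9.59% to 11.3% lower. Members at an unadjusted limma p under 0.05 were then 2 to 5 higher and 0 to 2 lower, and 3 lower without both B cell-rich tumors. The share of all genes at this limit was counted in the main fit only (3.79% higher and 3.35% lower). The median difference of components was -0.10 with the low-signal filter, which keeps 7 of 15. The receptor median was -0.040 with array weights. The anticoagulant median was 0.043 without both B cell-rich tumors and -0.10 to 0.14 without single tumors.

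Directions turned for C8a with quantile normalization (-0.020), median centring (-0.0040) and array weights (-0.013), which also turned Masp1 (0.056) and F13a1 (0.15). Without both B cell-rich tumors they turned for C1ra (-0.11), Cfb (-0.024), C8g (-0.094), Cfi (0.075), Cfp (-0.0042), Cd59a (-0.18), F13a1 (0.14) and Tfpi2 (0.043). Ranges over single tumors left out that crossed 0 were -0.090 to 0.45 for C1ra, -0.10 to 0.086 for Cfi, -0.29 to 0.057 for C1qa, -0.69 to 0.11 for Masp1, -0.11 to 0.090 for C8a, -0.16 to 0.067 for C3ar1, -0.53 to 0.11 for F13a1, -0.21 to 0.041 for Tfpi2, -0.11 to 0.55 for F10, -0.26 to 0.14 for Tfpi, -0.032 to 0.75 for Cfb, -0.056 to 0.19 for C8g, -0.27 to 1.33 for Cd55, -0.17 to 0.35 for Cd59a and -0.22 to 0.0024 for Itgam. The cause of these turns was not tested.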
